A study of Homo sapiens with 9 samples.

Results

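The genes described here encode the machinery of homologous recombination, the Fanconi anaemia pathway and the DNA damage and replication checkpoint. They are 37 named genes, listed by symbol and found by Ensembl identifier among the 60676 genes of the deposited table of fragments per gene. The list was chosen with earlier results of these data known, so its share of genes called is no independent test. All 37 had enough counts to be tested, so none was lost to the filter on low counts. RNA was sequenced from A549, an epithelial cell line established from a human lung adenocarcinoma. The cells were transduced with a lentiviral short hairpin RNA (shRNA) and selected with puromycin. The first group carried shLITATS1-1, the second shLITATS1-2, both directed against the long noncoding RNA LITATS1, and the third shNT, a hairpin with no intended target. Every group was transduced overnight with a lentiviral construct, kept for 2 days and held for another 3 days with puromycin at 1 ng/mL, so the controls shared the virus and the selection. Each group held 3 libraries, 9 in all, which the design text calls biological replicates. Whether each was transduced separately is not stated, and p-values then reflect only how much these libraries vary. All groups are of this 1 cell line.

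Each library held 24556848 to 24671296 fragments, with 19610514 to 19989652 of them counted in genes, and a member had between 23 and 4387 fragments in a library. Levels are in CPM, a gene's fragments scaled to a common library total with edgeR's TMM factors, and the SD of a member within a group was 4.43% of its mean at the median. LITATS1 stood at 3.00 to 3.79 CPM with shLITATS1-1 and at 2.69 to 3.33 CPM with shLITATS1-2, against 14.0 to 16.9 CPM with shNT, so the targeted RNA was low in all 6 hairpin libraries. All 7 genes listed as A549 markers, among them the keratin genes KRT8 and KRT18 and also KEAP1 and NFE2L2, were detected in every library. In edgeR's test 2 were lower and 3 higher with shLITATS1-1, where 30.5% of all genes were lower and 30.5% higher. With shLITATS1-2, 5 were lower and 1 higher, against 28.9% and 27.8%. KRT8 and KRT18 made up most of the sum of the 7. It was 7675 to 7779 CPM with shLITATS1-1, 3936 to 4194 CPM with shLITATS1-2 and 4415 to 4617 CPM with shNT. The 7 fibroblast markers summed to 5.95 to 6.84, 2.61 to 2.98 and 2.97 to 3.75 CPM in the same order, with DCN at 0 with shLITATS1-2 and shNT and COL1A2 at 0 with shNT. Per kilobase of exon, LUM had 1.20, 0.182 and 0.153 CPM and THY1 0.190, 0.157 and 0.387 CPM, again in that order. The 5 immune markers summed to 1.84 to 3.06, 5.05 to 6.04 and 1.23 to 1.64 CPM, nearly all from CD14, with CD3E at 0 throughout, and the 4 endothelial markers to at most 0.870 CPM in any library. The part of these marker differences in the results was not tested.

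Homologous recombination repairs a broken chromosome by copying the intact sister. The break is resected, BRCA1 with BARD1 and PALB2 brings in BRCA2, a strand of the broken DNA invades the intact copy, and the joined DNA molecules are then dissolved or cut apart. The Fanconi core complex attaches ubiquitin to the FANCD2 and FANCI pair at stalled forks and crosslinked DNA. The kinase ATM answers to double-strand breaks and ATR, with ATRIP and TOPBP1, to single-stranded DNA at stalled forks, and they activate CHEK2 and CHEK1. Many of these genes are transcribed mainly in late G1 and S phase, under E2F factors.

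Repair and checkpoint genes were lower with both LITATS1 hairpins. With shLITATS1-1, 33 of the 37 genes fell, 1 rose and 3 did not pass the test, and the median log2 fold change against shNT was -0.60. Of all 15500 genes tested, 30.5% were called lower and 30.5% higher in the same comparison, with a median log2 fold change of -0.0070. With shLITATS1-2, 30 fell, 1 rose and the other 6 missed the threshold. The median was -0.49, where 28.9% of all genes were called lower and 27.8% higher and their median was -0.0040. With scaling by library size alone, 26 of the 37 fell and 2 rose with shLITATS1-2, and 2967 of all genes fell and 6058 rose. The tests were edgeR's quasi-likelihood test over all genes with p-values adjusted by Benjamini-Hochberg and called under 0.05. Called lower by at least 1.5-fold were 19 of the 37 genes with shLITATS1-1, against 8.17% of all genes, and 13 with shLITATS1-2, against 7.17%. At least 2-fold lower were 3 genes with shLITATS1-1, against 2.54% of all genes, and 1 with shLITATS1-2, against 2.17%, which for shLITATS1-2 is near the share of all genes.

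Called lower with both hairpins were 28 of the 37 genes, against 16% of all genes tested. None of the 37 was called higher with both, where 15.2% of all genes were, and 1 gene, ATM, was called in opposite directions, where 9.01% of all genes were. The comparisons share the shNT libraries, so their counts are not independent. In 31 of 37 genes all 3 shLITATS1-1 libraries lay below all 3 shNT libraries, which held for 32% of all genes tested, and the same number of the 37 lay below with shLITATS1-2, against 30.2% of all genes. The summed level of the 37 genes was 1190 ± 9.37 CPM with shLITATS1-1, 1277 ± 19.2 CPM with shLITATS1-2 and 1760 ± 34.1 CPM with shNT (SD, n = 3 each). The sums were thus 67.6% and 72.6% of the shNT level, and the 3 groups did not overlap.

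**Figure D1:**
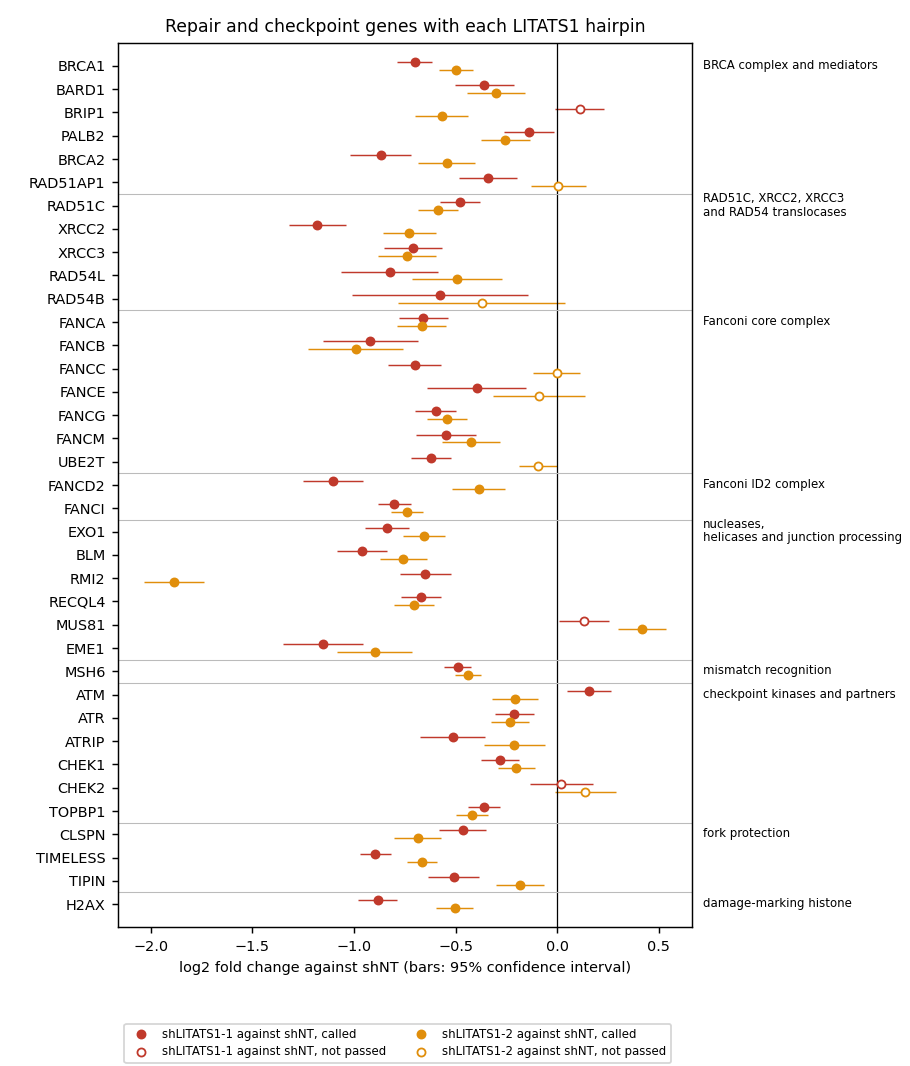
Log2 fold change of the 37 genes with shLITATS1-1 (red) and shLITATS1-2 (orange) against shNT, with 95% confidence intervals from the edgeR fit and genes grouped by role; filled points passed the test at an adjusted p of 0.05. Nearly all points lie left of 0, RMI2 with shLITATS1-2 lies farthest left at -1.89, and BRIP1, RAD51AP1, MUS81, CHEK2 and ATM have points right of 0.

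Proliferation markers moved with these genes. Of 12 such markers, among them the antigen gene MKI67, the topoisomerase gene TOP2A and the kinase gene CDK1, 11 fell and CCNE2 rose with shLITATS1-1, and 11 fell with shLITATS1-2 while CCNE2 did not pass. The shares of all genes were 30.5% lower and 30.5% higher with shLITATS1-1, and 28.9% and 27.8% with shLITATS1-2. The summed level of the 12 markers was 1264 to 1302 CPM with shLITATS1-1, 1480 to 1532 CPM with shLITATS1-2 and 2192 to 2297 CPM with shNT, which is a mean of 57.3% and 66.7% of shNT. The ratio of the summed level of the repair genes to that of the markers was 0.924 ± 0.0118 with shLITATS1-1, 0.853 ± 0.00593 with shLITATS1-2 and 0.784 ± 0.00891 with shNT (SD, n = 3 each), so the ratio was higher with each hairpin than with shNT. In bulk RNA, fewer dividing cells and less RNA per cell cannot be told apart, and the part of the markers in the repair genes' change was not tested. Mitochondrially encoded genes took 10.2%, 7.97% and 12.2% of gene fragments with shLITATS1-1, shLITATS1-2 and shNT, and the part of this difference was not tested either.

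RefSeq promoters (GRCh38.p14, 250 bases before to 50 after the transcript start, the first entry of each symbol) matched 33 of the 37 genes; RAD54B, FANCI, RMI2 and RECQL4 had no entry. In 28 of the 33 the promoter's end lay in a GENCODE 29 transcript in sense, which was not so for BRCA1, FANCD2, TIMELESS, XRCC3 and UBE2T. The BRCA1 window, at 43170278 to 43170577 of chromosome 17 on the minus strand, lay wholly before the GENCODE gene, whose start is at 43170245. All of these promoters are kept in the shares that follow. An E2F motif, searched as TTTCCCGC, TTTCGCGC, TTTGCCGC or TTTGGCGC on both strands, was found in 7 of the 25 promoters of genes lower with both hairpins (28%), in 1 of the other 8 (12.5%), in 7 of 59 promoters of the other recombination and checkpoint genes tested (11.9%), in 5.22% of the 11289 promoters of all genes tested and in 3.33% of all 27305 promoters. In 6 of the 7 the match began within 25 bases of the transcript start, in CLSPN, EXO1, MSH6, FANCD2, TOPBP1 and XRCC2, which is 24% of the 25 promoters and compares with 1.03% of promoters of all genes tested. That window was chosen after the positions were seen. Of the 6 members with the largest change held by both hairpins, FANCB, EME1, BLM and XRCC3 held no E2F match. XRCC2 held 1 and FANCI had no promoter entry. The NF-Y box CCAAT, on either strand, was found in 52% of the 25 promoters, in 75% of the other 8 and in 36.1% for all genes tested. The CHR element of cell cycle genes, searched as TTTGAA or TTCGAA on either strand, was found in 4%, 50% and 11.2%. In these promoters no match of 1 motif shared bases with a match of another, and a match is a description of letters only.

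The promoters of EXO1, XRCC2 and FANCD2 are shown because they hold an E2F match within 25 bases of the start and their genes fell with both hairpins. The FANCC promoter is shown because it holds an E2F match on each strand and its gene fell with shLITATS1-1 alone. The H2AX and ATM promoters are shown because they hold none, while H2AX fell with both and ATM went in opposite directions. They lie at chr1:241847954-241848253 (plus strand), chr7:152676092-152676391 (minus strand), chr3:10026187-10026486 (plus strand), chr9:95317660-95317959 (minus strand), chr11:119095416-119095715 (minus strand) and chr11:108222817-108223116 (plus strand) of GRCh38.p14. Each is written 5′ to 3′ on the strand of its gene, and capitals mark the E2F, NF-Y box and CHR matches.
EXO1: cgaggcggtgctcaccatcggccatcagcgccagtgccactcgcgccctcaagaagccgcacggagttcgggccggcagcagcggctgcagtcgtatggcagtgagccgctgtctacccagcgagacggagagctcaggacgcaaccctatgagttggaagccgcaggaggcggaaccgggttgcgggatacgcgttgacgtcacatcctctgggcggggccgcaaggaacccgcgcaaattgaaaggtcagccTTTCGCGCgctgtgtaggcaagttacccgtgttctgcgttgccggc
XRCC2: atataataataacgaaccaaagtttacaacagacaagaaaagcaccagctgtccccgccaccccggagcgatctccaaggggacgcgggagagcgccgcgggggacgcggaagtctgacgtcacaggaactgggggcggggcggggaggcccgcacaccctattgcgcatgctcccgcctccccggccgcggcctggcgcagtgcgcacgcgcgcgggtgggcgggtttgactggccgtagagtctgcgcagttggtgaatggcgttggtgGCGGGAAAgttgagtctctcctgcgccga
FANCD2: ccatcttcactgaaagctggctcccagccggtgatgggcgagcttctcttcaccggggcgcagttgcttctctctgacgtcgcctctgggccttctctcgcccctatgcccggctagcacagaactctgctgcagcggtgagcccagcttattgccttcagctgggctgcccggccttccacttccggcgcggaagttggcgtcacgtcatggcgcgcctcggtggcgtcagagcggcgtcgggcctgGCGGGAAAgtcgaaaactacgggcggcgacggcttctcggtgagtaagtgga
FANCC: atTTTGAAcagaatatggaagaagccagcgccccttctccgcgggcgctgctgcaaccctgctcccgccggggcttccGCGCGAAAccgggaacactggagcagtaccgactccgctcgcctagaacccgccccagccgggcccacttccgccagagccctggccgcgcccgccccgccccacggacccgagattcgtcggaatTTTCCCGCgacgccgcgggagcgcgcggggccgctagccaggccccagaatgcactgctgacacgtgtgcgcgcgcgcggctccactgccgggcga
H2AX: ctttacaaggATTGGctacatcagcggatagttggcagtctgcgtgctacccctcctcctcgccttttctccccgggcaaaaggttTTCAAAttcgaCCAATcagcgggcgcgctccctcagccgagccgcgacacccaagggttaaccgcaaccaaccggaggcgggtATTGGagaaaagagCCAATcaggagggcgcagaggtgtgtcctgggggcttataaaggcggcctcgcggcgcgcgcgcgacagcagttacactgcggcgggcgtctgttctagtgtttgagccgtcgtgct
ATM: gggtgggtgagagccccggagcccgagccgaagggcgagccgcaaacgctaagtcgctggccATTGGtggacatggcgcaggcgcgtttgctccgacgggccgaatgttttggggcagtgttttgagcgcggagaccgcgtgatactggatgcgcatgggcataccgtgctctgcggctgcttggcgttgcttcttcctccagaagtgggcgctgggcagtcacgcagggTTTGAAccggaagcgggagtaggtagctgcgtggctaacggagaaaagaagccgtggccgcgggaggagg

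Counting from the transcript start, with its first base as 1, the E2F match began at base 5 in EXO1 (sense), at 22 in XRCC2 and at -2 in FANCD2 (both antisense), and at -172 (antisense) and -46 (sense) in FANCC, which also held a CHR match at -248. The H2AX promoter held 4 NF-Y boxes, at -240, -153, -81 and -67, and a CHR match at -164. The ATM promoter held a CHR match at -20 and an NF-Y box at -188.

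**Figure D2:**
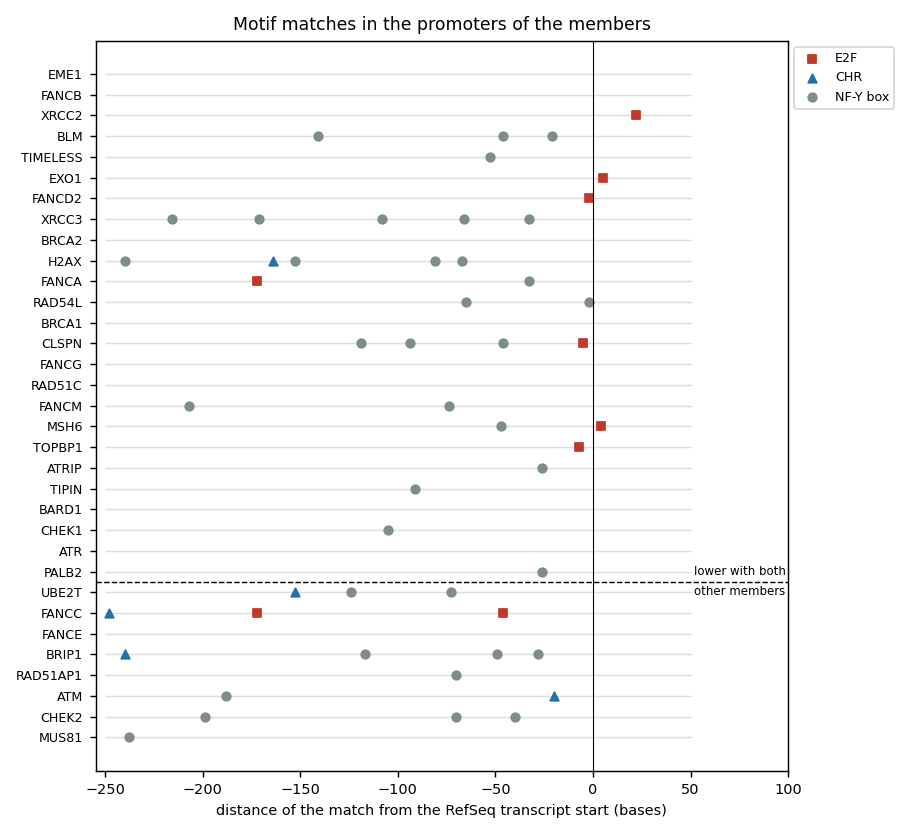
Position of E2F (red squares), CHR (blue triangles) and NF-Y box (grey circles) matches in the 33 promoters, by distance in bases from the RefSeq transcript start; genes lower with both hairpins are above the dashed line, ordered by their mean log2 fold change. The 6 E2F matches nearest the start all belong to genes lower with both hairpins, as do 25 of the 33 promoters. These 6 were singled out after the positions were seen.

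Among the BRCA complex and its mediators, 5 of 6 genes fell with each hairpin. For this and the groups of members below, the shares of all genes lower were 30.5% with shLITATS1-1 and 28.9% with shLITATS1-2. BRCA1, the ubiquitin ligase subunit at the head of the pathway, had 65.1, 67.4 and 67.0 CPM with shLITATS1-1 and 73.6, 78.7 and 77.2 CPM with shLITATS1-2, against 117, 106 and 101 CPM with shNT. Its groups did not overlap, and it fell by 0.70 (SE 0.043) and 0.50 (SE 0.042) on the log2 scale. BRCA2, a mediator of strand invasion, averaged 12.7 ± 1.07, 15.9 ± 0.680 and 23.2 ± 1.72 CPM in the same groups (SD, n = 3 each) and fell by 0.87 (SE 0.075) and 0.54 (SE 0.071). BARD1, the partner of BRCA1, fell by 0.36 and 0.30. In edgeR's test PALB2, the bridge between BRCA1 and BRCA2, stood at -0.14 (SE 0.061, adjusted p = 0.0417) with shLITATS1-1, a call lost in 5 of 7 other settings with all replicates and without shLITATS1-1 replicate 1 (-0.13) or 2 (-0.10), or shNT replicate 1 (-0.14) or 2 (-0.088). It fell by 0.26 (SE 0.061) with shLITATS1-2.

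BRIP1, a helicase that binds BRCA1, and RAD51AP1, which stimulates strand invasion, each passed the test with 1 hairpin and not with the other. BRIP1 had 29.8, 28.5 and 27.6 CPM with shLITATS1-1 and 16.8, 18.8 and 18.0 CPM with shLITATS1-2, against 27.6, 26.4 and 25.5 CPM with shNT. The shLITATS1-2 libraries stood below all the others, while shLITATS1-1 and shNT overlapped. Its log2 fold change was 0.11 (SE 0.061, adjusted p = 0.114 in edgeR's test) with shLITATS1-1 and -0.57 (SE 0.065, adjusted p = 7.42e-12) with shLITATS1-2. RAD51AP1 averaged 16.4 ± 0.949, 20.8 ± 0.406 and 20.7 ± 1.22 CPM with shLITATS1-1, shLITATS1-2 and shNT (SD, n = 3 each). It fell by 0.34 (SE 0.071) with shLITATS1-1 and stood at 0.0057 (SE 0.067, 95% confidence interval -0.13 to 0.14) with shLITATS1-2.

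RAD51C, XRCC2, XRCC3, RAD54L and RAD54B act around strand invasion, and all 5 fell with shLITATS1-1 and 4 of them with shLITATS1-2. XRCC2 (chromosome 7, 152644779 to 152676165, minus strand; GENCODE 29 positions on GRCh38, here and for the genes after it), which works in a complex with RAD51C, had 13.7, 15.3 and 12.3 CPM with shLITATS1-1 and 19.7, 17.9 and 19.0 CPM with shLITATS1-2, against 33.0, 30.1 and 30.4 CPM with shNT. The 3 groups were apart from each other. In edgeR's test the log2 fold changes of XRCC2 were -1.18 (SE 0.070, adjusted p = 1.94e-24) and -0.73 (SE 0.065, adjusted p = 6.38e-16), the first being the largest fall of the 37 genes with shLITATS1-1.

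XRCC3 (chromosome 14, 103697609 to 103715504, minus strand), which also pairs with RAD51C, had 14.8, 15.0 and 13.1 CPM with shLITATS1-1 and 13.7, 14.2 and 14.1 CPM with shLITATS1-2, against 22.4, 23.7 and 23.9 CPM with shNT. Both hairpin groups lay below shNT and overlapped each other, with log2 fold changes of -0.71 (SE 0.071) and -0.74 (SE 0.070). Of its exon bases 76.7% are shared with KLC1 on the opposite strand, so its count is uncertain. RAD51C fell by 0.48 and 0.59 and RAD54L, a motor protein that moves along DNA, by 0.82 and 0.49. RAD54B, its relative, was the lowest of the 37 genes per length. In edgeR's test it stood at -0.58 (SE 0.22, adjusted p = 0.0173) with shLITATS1-1, a call lost in DESeq2 (-0.57), without shLITATS1-1 replicate 1 (-0.45) and without shNT replicate 1 (-0.38), and stood at -0.37 (SE 0.21, adjusted p = 0.118) with shLITATS1-2, where it was called without shNT replicate 2 (-0.55).

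The 7 genes grouped here with the Fanconi core complex all fell with shLITATS1-1, with a median log2 fold change of -0.62. With shLITATS1-2, 4 fell, with a median of -0.43. The 7 include the enzyme UBE2T and leave out FANCF, FANCL, FAAP20, FAAP24 and FAAP100, counted below with the regulators. Per kilobase of exon, FANCL had 12.6, 11.8 and 11.2 CPM with shLITATS1-1, shLITATS1-2 and shNT. FANCF had 5.57, 7.49 and 5.53, FAAP20 2.04, 2.42 and 2.01, FAAP100 6.92, 6.63 and 7.13, and FAAP24 5.15, 5.96 and 6.35. FANCB (X chromosome, 14835961 to 14873069, minus strand), a subunit of the catalytic module, had 4.15, 4.64 and 6.01 CPM with shLITATS1-1 and 4.11, 4.72 and 5.24 CPM with shLITATS1-2, against 10.1, 8.60 and 9.30 CPM with shNT. All 6 hairpin libraries lay below the shNT libraries and the hairpin groups overlapped. The edgeR test gave FANCB -0.92 (SE 0.12, adjusted p = 2.85e-10) and -0.99 (SE 0.12, adjusted p = 2.05e-11), which made it, by the smaller of its changes, the member that fell most with both hairpins. FANCA fell by 0.66 and 0.67, FANCG by 0.60 and 0.54 and FANCM, the DNA translocase that anchors the complex, by 0.55 and 0.43.

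FANCC, FANCE and UBE2T were called lower with shLITATS1-1 alone, though all 3 shLITATS1-2 libraries of UBE2T lay below all 3 shNT libraries. FANCC (chromosome 9, 95099054 to 95426796, minus strand), a core subunit, had 21.2, 18.3 and 20.9 CPM with shLITATS1-1 and 34.4, 33.6 and 30.1 CPM with shLITATS1-2, against 31.6, 33.6 and 33.0 CPM with shNT. The shLITATS1-1 libraries stood apart below the rest, and shLITATS1-2 overlapped shNT. It fell by 0.70 (SE 0.064) with shLITATS1-1 and stood at -0.0029 (SE 0.058, 95% confidence interval -0.12 to 0.11) with shLITATS1-2. UBE2T, the ubiquitin-conjugating enzyme of the pathway, averaged 36.3 ± 1.5, 52.2 ± 1.54 and 55.8 ± 1.88 CPM in the order shLITATS1-1, shLITATS1-2 and shNT (SD, n = 3 each), with log2 fold changes of -0.62 (SE 0.050) and -0.096 (SE 0.047, adjusted p = 0.0709 in edgeR's test), where it was called without shNT replicate 1 (-0.11). FANCE, which links the complex to FANCD2, fell by 0.40 and stood at -0.090 (SE 0.11). With scaling by library size alone the shLITATS1-2 values of FANCC, FANCE and UBE2T turned to 0.11, 0.023 and 0.017, none of them called.

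The substrates of the core complex, FANCD2 and FANCI, fell with both hairpins. FANCD2 (chromosome 3, 10026414 to 10101930, plus strand) had 16.6, 18.6 and 16 CPM with shLITATS1-1 and 24.6, 30.3 and 29.2 CPM with shLITATS1-2, against 40.3, 35.1 and 34.6 CPM with shNT. The groups did not overlap and shLITATS1-2 lay between the others, with falls of 1.10 (SE 0.073) and 0.39 (SE 0.065). FANCI (chromosome 15, 89243949 to 89317261, plus strand) had 67.0, 69.4 and 69.0 CPM with shLITATS1-1 and 69.6, 73.9 and 71.3 CPM with shLITATS1-2, against 124, 119 and 115 CPM with shNT. Both hairpin groups lay far below shNT, with falls of 0.80 (SE 0.040) and 0.74 (SE 0.039).

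**Figure D3:**
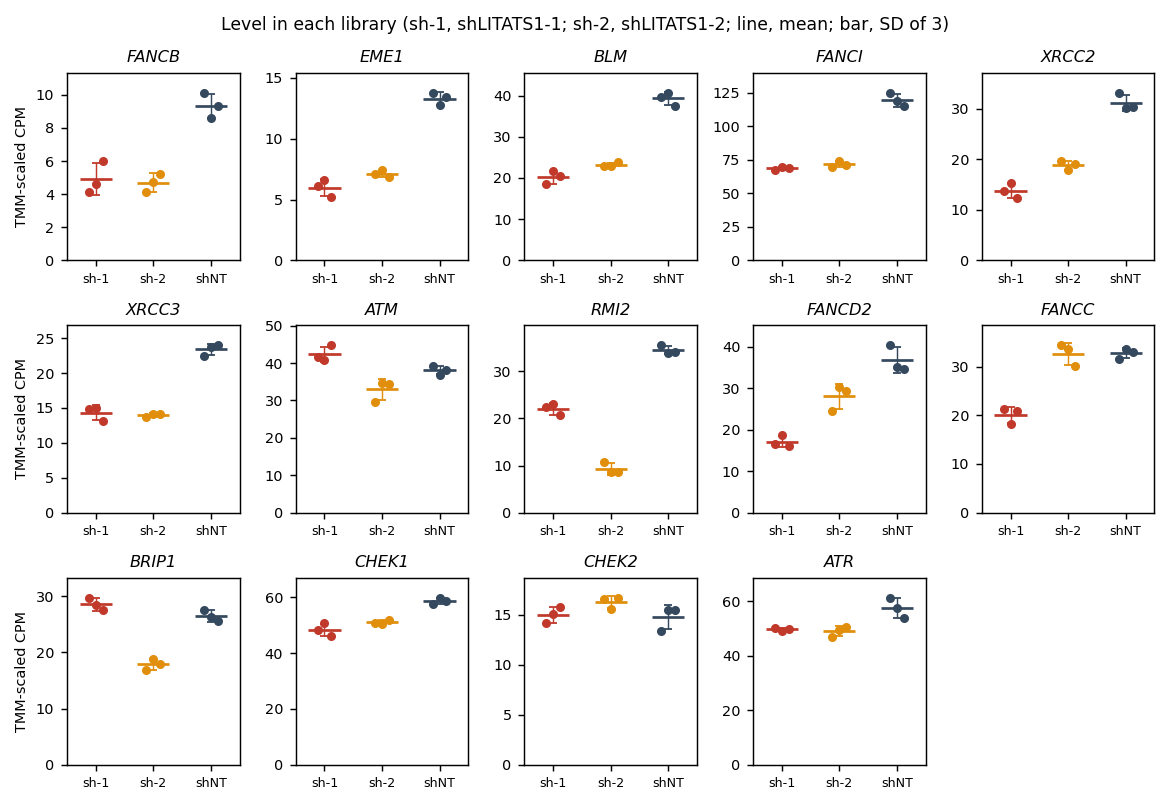
TMM-scaled CPM of 14 genes in each library with shLITATS1-1, shLITATS1-2 and shNT (left to right); points are libraries, lines means and bars SD of 3, and every axis starts at 0. FANCB, EME1, BLM, FANCI, XRCC2 and XRCC3 are low with both hairpins, RMI2 and BRIP1 are lowest with shLITATS1-2, and FANCC is low with shLITATS1-1 only.

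Among nucleases, helicases and junction processing enzymes, 5 of 6 genes fell with each hairpin and MUS81 did not. RMI2 (chromosome 16, 11249619 to 11381662, plus strand), a subunit of the complex in which the BLM helicase dissolves joined DNA molecules, had 22.4, 23.0 and 20.7 CPM with shLITATS1-1 and 10.8, 8.62 and 8.60 CPM with shLITATS1-2, against 35.5, 33.9 and 34.2 CPM with shNT. The 3 groups were far apart, with shLITATS1-2 lowest. In edgeR's test RMI2 stood at -0.65 (SE 0.063, adjusted p = 1.79e-14) with shLITATS1-1 and at -1.89 (SE 0.073, adjusted p = 9.96e-35) with shLITATS1-2, the largest change of the 37 genes in either comparison.

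BLM (chromosome 15, 90717327 to 90816165, plus strand) had 18.5, 21.6 and 20.5 CPM with shLITATS1-1 and 23.0, 23.0 and 23.8 CPM with shLITATS1-2, against 39.8, 40.5 and 37.6 CPM with shNT. Its groups did not overlap, with falls of 0.96 (SE 0.061) and 0.76 (SE 0.058). The other subunits of the BLM complex fell too: TOP3A, its topoisomerase, by 0.26 and 0.48 and RMI1 by 0.59 and 0.42. EXO1, an exonuclease that resects breaks, averaged 28.8 ± 1.86, 32.7 ± 0.237 and 51.5 ± 0.715 CPM with shLITATS1-1, shLITATS1-2 and shNT (SD, n = 3 each) and fell by 0.84 and 0.66. RECQL4, a helicase of replication and repair, fell by 0.67 and 0.70. MSH6, which recognises mismatched bases, fell by 0.49 and 0.44.

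EME1 and MUS81 encode the subunits of 1 endonuclease that cuts branched DNA, and their RNA levels moved differently. EME1 (chromosome 17, 50373220 to 50381483, plus strand) had 6.10, 6.64 and 5.22 CPM with shLITATS1-1 and 7.10, 7.46 and 6.83 CPM with shLITATS1-2, against 13.7, 12.7 and 13.4 CPM with shNT. All hairpin libraries lay below shNT, with falls of 1.15 (SE 0.098) and 0.90 (SE 0.093). MUS81, the catalytic subunit, averaged 32.0 ± 2.85 CPM with shLITATS1-1, 39.0 ± 2.05 CPM with shLITATS1-2 and 29.2 ± 1.98 CPM with shNT (SD, n = 3 each). Its log2 fold change was 0.13 (SE 0.062, adjusted p = 0.0594 in edgeR's test) with shLITATS1-1, and it was called there in some other settings: with DESeq2's size factors (0.14), a minimum count of 50 (0.14), the 6 libraries compared (0.14), and without shLITATS1-1 replicate 2 (0.20), shNT replicate 2 (0.16) or shNT replicate 3 (0.16). It rose by 0.41 (SE 0.059, adjusted p = 8.70e-09) with shLITATS1-2.

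The checkpoint kinases and their partners had median log2 fold changes of -0.25 and -0.21, with 4 of 6 lower and 1 higher with shLITATS1-1 and 5 lower with shLITATS1-2. CHEK1, the effector kinase of ATR, had 48.3, 50.6 and 46.0 CPM with shLITATS1-1 and 50.7, 50.4 and 52.1 CPM with shLITATS1-2, against 57.6, 59.9 and 58.6 CPM with shNT. All hairpin libraries lay below shNT, with falls of 0.28 (SE 0.047) and 0.20 (SE 0.046), the second lost with scaling by library size alone (-0.088). ATR had 50.2, 49.2 and 49.997 CPM with shLITATS1-1 and 47.0, 49.6 and 50.7 CPM with shLITATS1-2, against 61.4, 57.5 and 54.1 CPM with shNT. It too lay below shNT in all 6 libraries and fell by 0.21 (SE 0.048) and 0.23 (SE 0.047).

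CHEK2, the effector kinase of ATM, had 14.1, 15.1 and 15.8 CPM with shLITATS1-1 and 16.6, 15.6 and 16.7 CPM with shLITATS1-2, against 13.4, 15.5 and 15.5 CPM with shNT. It was the 1 gene of the 37 that passed in neither comparison, at 0.020 (SE 0.078, 95% confidence interval -0.14 to 0.18) and 0.14 (SE 0.076, interval -0.014 to 0.29), although with scaling by library size alone it rose by 0.25 with shLITATS1-2.

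ATM (chromosome 11, 108222484 to 108369102, plus strand) had 41.7, 40.9 and 44.7 CPM with shLITATS1-1 and 29.6, 34.8 and 34.5 CPM with shLITATS1-2, against 39.1, 37 and 38.2 CPM with shNT. All shLITATS1-1 libraries stood above shNT and all shLITATS1-2 libraries below it. In edgeR's test its log2 fold change was 0.16 (SE 0.055, adjusted p = 0.0116) with shLITATS1-1 and -0.21 (SE 0.056, adjusted p = 0.00106) with shLITATS1-2. The rise was lost without shLITATS1-1 replicate 3 (0.12) or shNT replicate 2 (0.13), and the fall with scaling by library size alone (-0.096).

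TOPBP1 and ATRIP, the partners of ATR among the 37 genes, fell with both hairpins. TOPBP1, an activator of ATR, averaged 74.4 ± 0.787, 71.4 ± 2.76 and 95.5 ± 2.33 CPM with shLITATS1-1, shLITATS1-2 and shNT (SD, n = 3 each). It fell by 0.36 and 0.42. ATRIP, which carries ATR to single-stranded DNA, fell by 0.52 with shLITATS1-1 and by 0.21 (adjusted p = 0.0136 in edgeR's test) with shLITATS1-2. That second call was lost in DESeq2 (-0.21), with library-size scaling (-0.099), without shLITATS1-2 replicate 1 (-0.18) and without shNT replicate 2 (-0.14). All 3 fork protection genes fell. TIMELESS averaged 77.4 ± 1.96, 90.7 ± 2.63 and 144 ± 6.14 CPM (SD, n = 3 each) in the same order, with falls of 0.90 (SE 0.038) and 0.67 (SE 0.037). CLSPN, the adaptor that passes the signal from ATR to CHEK1, fell by 0.47 and 0.69. TIPIN, the partner of TIMELESS, fell by 0.51 and by 0.18, and the second call was lost with library-size scaling (-0.069) and without shNT replicate 1 (-0.15).

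H2AX, the histone variant that is phosphorylated around a break, had 57.5, 54.9 and 50.3 CPM with shLITATS1-1 and 70.9, 73.9 and 67.0 CPM with shLITATS1-2, against 93.7, 107 and 99.4 CPM with shNT. The 3 groups were apart, with falls of 0.88 (SE 0.047) and 0.50 (SE 0.045). Per kilobase of exon, H2AX was the most abundant of the 37 genes in every group, at 33.6, 43.7 and 62.0 CPM per kilobase with shLITATS1-1, shLITATS1-2 and shNT, and RAD54B the least, at 0.278, 0.320 and 0.415. The median of the 37 genes on this scale was 3.99, 3.88 and 5.89 CPM per kilobase.

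The direct comparison asks where the hairpins differ. With shLITATS1-2 against shLITATS1-1, 17 of the 37 genes were called higher, 4 lower and 16 did not pass, and 30.7% of all genes were called higher and 30.2% lower. The median log2 difference of the 37 genes was 0.12, against 0.015 for all genes tested. With scaling by library size alone 25 were called higher and 3 lower, against 6912 higher and 3293 lower of all genes, and the medians were 0.25 and 0.15. Higher with shLITATS1-2 were, in the first places, FANCD2 (0.72, SE 0.075), FANCC (0.70, SE 0.064), UBE2T (0.52, SE 0.050), XRCC2 (0.45, SE 0.076) and H2AX (0.38, SE 0.049). These differences passed with adjusted p-values between 1.15e-15 for FANCC and 4.01e-07 for XRCC2 in edgeR's test.

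Lower with shLITATS1-2 than with shLITATS1-1 were RMI2 (-1.24, SE 0.079, adjusted p = 1.04e-22 in edgeR's test), BRIP1 (-0.68, SE 0.064), ATM (-0.36, SE 0.056) and CLSPN (-0.22, SE 0.062), of which the last was lost with scaling by library size alone (-0.091). Among the 16 genes that did not pass, the 95% confidence intervals of FANCI (-0.020 to 0.15), MSH6 (-0.017 to 0.12) and TOPBP1 (-0.14 to 0.023) were narrower than that of RAD54B (-0.25 to 0.66). With scaling by library size alone 8 of the 16 were called higher, at values outside the intervals above for FANCI (0.19) and MSH6 (0.18), and also BARD1 (0.19), FANCG (0.19), FANCM (0.25), CHEK1 (0.21), CHEK2 (0.25) and ATR (0.11). RAD51C was called lower with the 6 libraries compared (-0.12). 4 calls of a higher level were lost in some settings. RAD54L was lost in DESeq2 (0.33) and without shLITATS1-2 replicate 2 (0.26) or shLITATS1-1 replicate 2 (0.30) or 3 (0.31), and FANCE in DESeq2 (0.30) and without shLITATS1-2 replicate 2 (0.29) or 3 (0.27) or shLITATS1-1 replicate 2 (0.29). EME1 was lost in DESeq2 (0.25), with no filter (0.26), with the 6 libraries compared (0.24) and without shLITATS1-2 replicate 1 (0.26) or 2 (0.22) or shLITATS1-1 replicate 1 (0.26) or 3 (0.16), and BLM without shLITATS1-1 replicate 1 (0.14).

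**Figure D4:**
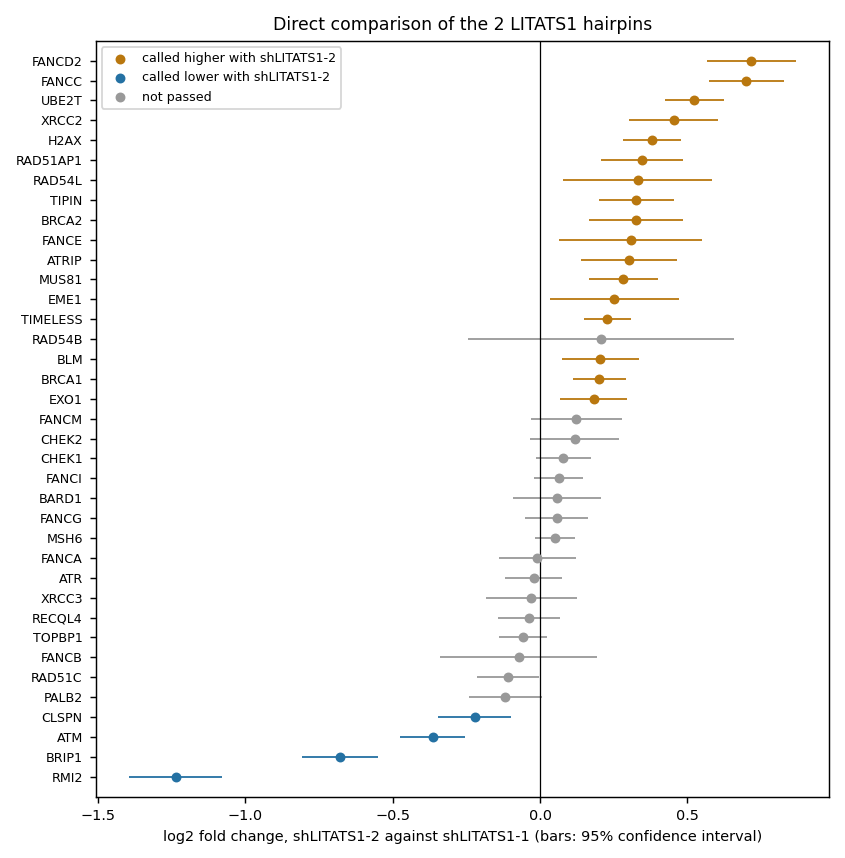
Log2 fold change of the 37 genes for shLITATS1-2 against shLITATS1-1, sorted, with 95% confidence intervals; orange genes were called higher and blue genes lower with shLITATS1-2. RMI2 and BRIP1 lie farthest left and FANCD2 and FANCC farthest right.

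Other genes of the same pathways fell in part. Of 73 further genes of recombination, the Fanconi pathway, resection, junction processing, checkpoint signalling and mismatch repair, 69 could be tested, and 38 fell and 6 rose with shLITATS1-1 and 38 fell and 12 rose with shLITATS1-2. The shares of all genes, for these counts and those of the smaller lists that follow, were 30.5% lower and 30.5% higher with shLITATS1-1 and 28.9% lower and 27.8% higher with shLITATS1-2. The median log2 fold changes of the 69 genes were -0.22 and -0.16. RAD51AP2, SLX1A, SLX1B and RTEL1 were not tested for low counts, and 86.2% of SLX1A's and 70.2% of RTEL1's exon bases are shared with other genes. Of 14 tested genes of recombination 7 fell with shLITATS1-1 and 8 fell and SFR1 rose with shLITATS1-2. HROB fell by 0.76 and 0.21, FIGNL1 by 0.71 and 0.81 and MCM8, which with HROB drives repair synthesis, by 0.40 and 0.71.

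Of 16 further genes of the Fanconi pathway, regulators and remaining core subunits, 7 fell and 3 rose with shLITATS1-1. With shLITATS1-2, 8 fell and 3 rose. SLX4, the scaffold of nucleases, fell by 0.59 and 0.42, and USP1, which removes ubiquitin from FANCD2, fell by 0.41 and 0.42, while FANCF, a core adaptor, stood at 0.0080 with shLITATS1-1 and rose by 0.44 with shLITATS1-2. Of 6 resection genes 5 fell with each hairpin. DNA2, a nuclease and helicase, fell by 0.97 and 0.48, and NBN, of the break-sensing MRN complex, by 0.14 and 0.74. Of 21 checkpoint signalling genes 12 fell and 3 rose with shLITATS1-1, or 57.1% and 14.3%, against 30.5% and 30.5% of all genes. With shLITATS1-2, 9 fell and 5 rose, or 42.9% and 23.8%, against 28.9% and 27.8% of all genes. PKMYT1, a kinase that restrains CDK1, fell by 1.26 and 0.62, CDC25C, the opposing phosphatase, by 0.89 and 0.47, and MDC1, which binds phosphorylated H2AX, fell by 0.89 with shLITATS1-1 and stood at 0.042 with shLITATS1-2. Of 6 further mismatch repair genes 3 fell with shLITATS1-1, and 3 fell and 2 rose with shLITATS1-2.

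Repair by other routes was counted in the same way. Of 10 tested genes of non-homologous end joining, which rejoins ends without a template, 5 fell and 1 rose with shLITATS1-1, and 6 fell and 1 rose with shLITATS1-2, with medians of -0.15 and -0.20. XRCC4, a scaffold of that route, fell by 0.57 and 0.21, and the ligase gene LIG4 stood at 0.069 with shLITATS1-1 and fell by 0.65 with shLITATS1-2. Of 28 tested genes of base and nucleotide excision repair 15 fell and 4 rose with shLITATS1-1, and 13 fell and 6 rose with shLITATS1-2, with medians of -0.25 and -0.14. The difference between these lists and the 37 genes was not tested.

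**Figure D5:**
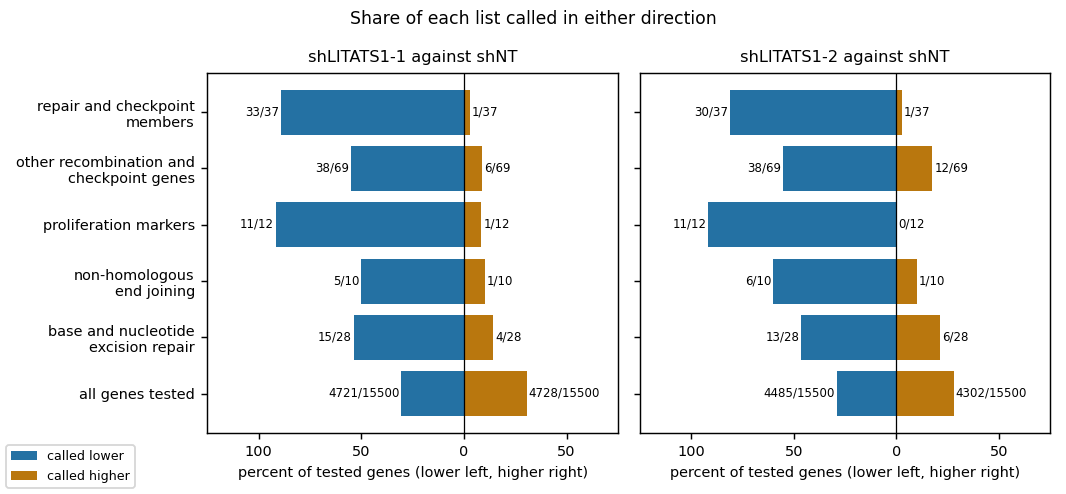
Percent of the tested genes of 5 lists and of all genes called lower (blue, to the left) or higher (orange, to the right) against shNT, with shLITATS1-1 on the left and shLITATS1-2 on the right; the numbers are genes called of genes tested. Of the 6 sets plotted, the 37 repair and checkpoint genes and the 12 proliferation markers have the longest bars to the left in both panels.

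Counting limits apply to some of these genes. Of the 37, 22 share some exon bases with another gene in GENCODE 29, and 10 share at least 10% of them: XRCC3 (76.7%), RAD54B (59.1%), ATRIP (27.9%), RAD54L (25.1%), FANCA (23.6%), TIPIN (21.0%), EME1 (16.4%), ATR (16.4%), MSH6 (16.2%) and MUS81 (14.1%). Whether the counting used strand is not stated, so reads of these genes and of their neighbours cannot be told apart with certainty.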

How the data were processed

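The values are counts of fragments per gene, which the authors deposited as 1 table without normalization. The submitters' processing notes name GRCh38 as the build and list the tools FastQC, cutadapt (2.10), STAR (2.7.5a) and HTSeq (0.12.4). Neither the strand setting nor the annotation release is given in the sources used here. Sample titles gave each library its group and number. Fragments that the counter put in no gene were dropped: ambiguous fragments were 10.2%, 10.3% and 10.8% of all with shLITATS1-1, shLITATS1-2 and shNT, unaligned ones 5.56%, 5.43% and 3.79%, those without a feature 2.49%, 2.52% and 2.33%, and multiply aligned ones 1.88%, 1.86% and 2.11%.

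Genes were kept by filterByExpr (minimum count 10), which left 15500. All 9 libraries entered 1 edgeR 4.0.16 quasi-likelihood fit (robust, TMM) in R 4.3.3 with 6 residual degrees of freedom, and tests were two-sided. Alternatives were DESeq2 1.42.0, its size factors, library-size scaling, other filters, a replicate block, the 6 libraries compared, a threshold of 0.01, a 1.5-fold minimum and each library left out. Replicate pairs differed by more than sampling noise (chi-square per degree of freedom 1.47 to 2.72). Positions and exon lengths are from GENCODE 29 and promoters from RefSeq.

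The members and lists were chosen with earlier results of these data known. Values in every library are given for the 6 members with the largest change held by both hairpins, those called in opposite directions, the 4 with the largest difference between hairpins and 4 kinases. BRCA1 and H2AX were added after their values were seen. From each further list up to 3 called genes per comparison may be named by size; the others named there, such as TOP3A, RMI1, NBN and USP1, were chosen after their values were seen. Some genes of these lists are not reported here by name.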

Additional observations from a re-analysis of the deposited data

Results flagged for a closer look

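ATM differed between the hairpins in direction. Its level was called lower with shLITATS1-2 and higher with shLITATS1-1, each against shNT, and the test of the difference itself gave a log2 fold change of -0.36 (SE 0.056, adjusted p = 3.88e-08, edgeR) for shLITATS1-2 against shLITATS1-1. All 3 shLITATS1-2 libraries lay below all 3 shLITATS1-1 libraries.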

How the results depend on the processing

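Counts of the 37 genes called moved by over 1.5 times in a few settings, and the cause was not tested beyond the settings themselves. A 1.5-fold minimum left 19 lower and 0 higher with shLITATS1-1 against shNT, 13 lower and 0 higher with shLITATS1-2 against shNT, and 2 lower and 2 higher with shLITATS1-2 against shLITATS1-1. The 1 gene higher with shLITATS1-1 became 2 with DESeq2's size factors, a minimum count of 50 or the 6 libraries compared, 0 at an adjusted p under 0.01, and 0 to 2 with a library left out. The 1 gene higher with shLITATS1-2 became 2 with library-size scaling, which moved the median of all genes to 0.11 in that comparison and to 0.15 between the hairpins. Libraries with the same replicate number showed no shared deviation (correlations of same-numbered deviations -0.061 to 0.036). Such correlations cannot show whether these libraries were prepared together. A replicate block changed 1 call, PALB2 with shLITATS1-1 (-0.14, adjusted p = 0.0534 in edgeR). Every sign change concerned a value that was not called with TMM scaling. With library-size scaling, shLITATS1-2 against shNT turned to 0.11 for FANCC, 0.023 for FANCE and 0.017 for UBE2T, and shLITATS1-2 against shLITATS1-1 to 0.014 for PALB2, 0.023 for RAD51C, 0.10 for XRCC3, 0.12 for FANCA, 0.058 for FANCB, 0.095 for RECQL4, 0.11 for ATR (adjusted p = 0.0416 in edgeR, a call) and 0.072 for TOPBP1. A minimum count of 50 turned FANCC to 0.015 with shLITATS1-2. With a library left out, CHEK2 with shLITATS1-1 ranged over -0.041 to 0.062, and with shLITATS1-2 RAD51AP1 over -0.021 to 0.062, FANCC over -0.042 to 0.053 and FANCE over -0.20 to 0.0031. Between the hairpins the ranges were -0.091 to 0.0058 for XRCC3, -0.048 to 0.027 for FANCA, -0.19 to 0.091 for FANCB and -0.044 to 0.011 for ATR. Depth limits RAD54B most, with as few as 23 fragments in a library.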
